A study of Mus musculus with 8 samples.

Results

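The core factors of nonsense-mediated mRNA decay were measured in laser-captured areas of the adult mouse testis after treatment with di-(2-ethylhexyl) phthalate (DEHP), a plasticiser. The group holds 7 genes: Upf1, Upf2, Upf3a, Upf3b, Smg1, Smg5 and Smg6. They were found as all probes outside the control spots whose gene name on the array is 1 of these symbols or an older symbol for it, which gave 26 of 41174 probes. Smg1 is listed on the array under its older name 2610207I05Rik. Of the 26 probes, 14 were kept as well above background, among 22975 kept probes in all, and each of the 7 genes had at least 1 kept probe. The genes were picked with their ratios of DEHP over vehicle from these arrays already known, so those ratios are given here as a description, with no test.

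Nonsense-mediated decay degrades transcripts on which a ribosome stops too early, and it also sets the level of many intact transcripts. The helicase UPF1 is recruited to the stalled ribosome, is linked through UPF2 and UPF3A or UPF3B to the exon junction complex downstream, and is phosphorylated by the kinase SMG1. Phosphorylated UPF1 then draws in SMG6, which cuts the transcript, and SMG5, which helps hand it to decapping and deadenylation. In the mouse testis the pathway is known to be needed in both Sertoli cells and germ cells, and loss of Upf2 in either disturbs spermatogenesis.

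DEHP mice were male C57BL/6J animals aged 21 weeks that received 200 mg/kg/day DEHP dissolved in corn oil by gavage for 21 days. Vehicle mice were of the same strain, sex and age and received corn oil alone for 21 days, and there were 4 mice in each group. RNA of the right testis came from 1 cap per mouse, was amplified in 2 rounds and was compared on 8 Agilent 2-colour arrays. Each DEHP mouse was hybridised against 1 vehicle mouse in both dye orientations, so that pair 1 held DEHP mouse 1 with vehicle mouse 2, pair 2 held DEHP 2 with vehicle 3, pair 3 held DEHP 3 with vehicle 4, and pair 4 held DEHP 4 with vehicle 1.

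The tissue labels name areas rich in Sertoli cells, from the intermediate layer of the seminiferous epithelium, whereas the extraction protocol speaks of capturing Leydig cells. Of 20 Sertoli cell markers 17 had a kept probe, and Gata4 and Dmrt1 were among those that did not. Of 9 Leydig cell markers 5 had one, and Cyp11a1, Hsd3b6, Hsd17b3 and Lhcgr did not. Germ cell transcripts were measured as well, with 12 of 12 spermatid and 8 of 9 spermatocyte markers kept, so the values below belong to a mixture of cells. In such samples fewer cells of a type and less RNA per cell cannot be told apart. The median log2 ratio of DEHP over vehicle in pairs 1 to 4 was 0.090, 0.12, -0.13 and -0.0048 for the Sertoli markers and -0.16, 0.23, -0.79 and -0.21 for the Leydig markers. For the spermatid markers it was -0.11, 0.11, 0.042 and 0.089, and for the spermatocyte markers -0.0086, 0.092, -0.071 and -0.14. In DEHP mice the summed marker level was 661000 to 887000 for spermatids and 47400 to 62900 for Sertoli cells. In vehicle mice it was 670000 to 836000 and 40400 to 61400. These sums cover 12 and 17 markers read by different probes, so they do not give the share of a cell type. The summed Leydig marker level overlapped between groups, at 3270 to 11600 in DEHP mice and 3420 to 11400 in vehicle mice. The part of these markers in the ratios of the decay factors was not tested.

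All 7 genes were detected, but by only some of their probes. A spot counts here as above background when the scanning software called it well above background in that colour channel, and a probe was kept with at least 4 of 8 DEHP channels or 4 of 8 vehicle channels above. Of the 14 kept probes, 13 were above background in all 16 channels, and Upf2 A_52_P664280 was above in 15. The other 12 were above in 0 to 2 of 16 channels, and 7 of them in none. No probe lay between these extremes, so the split does not turn on the exact minimum.

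**Figure D1:**
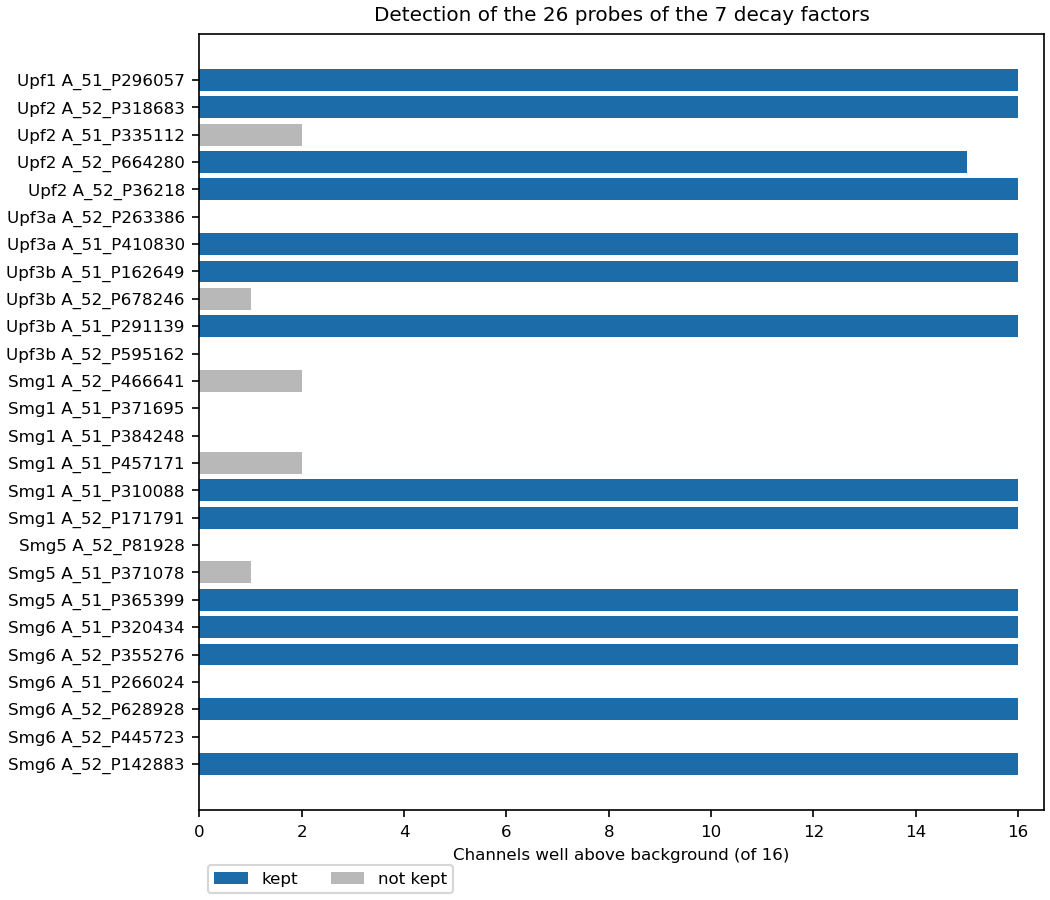
Number of the 16 array channels (8 DEHP, 8 vehicle) in which each of the 26 probes was well above background, with the probes of a gene listed from its 5′ to its 3′ end. Kept probes were above background in 15 or 16 channels and the others in 0 to 2.

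Undetected probes were spread unevenly over the genes. Upf1, the helicase, has a single probe, and it was kept. For Smg1, the kinase, the 4 probes nearer the 5′ end of the gene were not kept and the 2 at its 3′ end were. Smg5 had its 2 upstream probes undetected and its last probe kept. For Smg6, the endonuclease, 4 of 6 probes were kept, including the first 2. Upf2 kept 3 of 4 probes, Upf3b 2 of 4 and Upf3a 1 of 2. The GC content of the 60-base probes reached up to 55.0% (median 42.5%) among those kept and up to 45.0% (median 40.9%) among the others. Of the 6 probes whose design coordinates span a splice junction, 3 were kept and 3 were not. Smg6 A_52_P445723 lies on the strand opposite to the other Smg6 probes and was above background in 0 of 16 channels.

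The probe sequences below are shown because probes of a single gene gave different ratios. Each value is therefore given for its probe and not for the gene as a whole. The cause of these differences was not tested. They are the array's designed probes, read 5′ to 3′, and positions are those of the array design in mouse build mm7. Exon and UTR annotation in that build was not used here. The kept Upf3a probe, at chr8:13772777-13772836 on the plus strand, carries the most even ratio of the group. Upf1 is at chr8:68786939-68786998, minus strand. The first and last kept Upf2 probes are at chr2:5878291-5878350 and chr2:5973449-5973508, plus strand. The kept Upf3b probes are at chrX:31861852-31864202, across a junction, and chrX:31855409-31855468, both on the minus strand. The first kept Smg6 probe is at chr11:75010803-75010862 and the junction probe at chr11:75241477-75244449, both on the plus strand.
Upf3a A_51_P410830: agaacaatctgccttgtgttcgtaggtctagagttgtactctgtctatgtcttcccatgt
Upf1 A_51_P296057: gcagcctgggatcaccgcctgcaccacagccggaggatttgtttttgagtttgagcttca
Upf2 A_52_P318683: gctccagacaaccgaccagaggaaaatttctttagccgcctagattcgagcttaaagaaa
Upf2 A_52_P36218: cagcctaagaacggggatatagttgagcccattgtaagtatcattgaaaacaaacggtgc
Upf3b A_51_P162649: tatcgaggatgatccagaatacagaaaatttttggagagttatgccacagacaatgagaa
Upf3b A_51_P291139: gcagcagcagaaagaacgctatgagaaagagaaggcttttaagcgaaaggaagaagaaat
Smg6 A_51_P320434: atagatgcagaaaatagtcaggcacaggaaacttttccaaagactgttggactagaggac
Smg6 A_52_P628928: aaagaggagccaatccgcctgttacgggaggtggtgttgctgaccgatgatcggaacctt

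Each of these 8 sequences has at least 1 reading frame without a stop codon, but only probes with such a frame could be printed whole. Over the whole group such a frame was present in 11 of 14 kept and 10 of 12 undetected probes. The share over all probes of the array was not counted, so nothing is read from these counts. The kept Smg5 probe, the last Smg1 probe and the last Smg6 probe have stops in all 3 frames.

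Ratios are log2 of DEHP over vehicle after normalization, where 0 means equal signal and 1 a doubling. The 2 dye-swapped arrays of a pair were averaged, which leaves 4 values for each probe. The 14 kept probes had means from -0.39 to 0.17 with a median of -0.073, 8 below 0 and 6 above. The SD over the 4 pairs ran from 0.093 to 0.58, and for all but Upf3a it was about as large as the mean or larger. Across all kept probes no test was passed: limma, fitted to the 4 pair values of 22975 probes, gave an adjusted p under 0.05 for 0 of them (0%), with 1055 (4.59%) at an unadjusted p under 0.05. These p-values and SDs cover the spread among these mice, which with 1 cap per mouse includes that of capture and amplification. The number of mice, 4 in each group, limits the precision.

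The ratio was below 0 in all 4 pairs for 2 of the 14 probes, Upf3a A_51_P410830 and Smg6 A_52_P628928, against 7.08% of all kept probes. No member was above 0 in all 4 pairs, against 6.56%. On all 8 single arrays 1 of the 14 was below 0, against 1.86%, and 0 were above 0, against 1.89%. None of the 14 had mouse levels that separated the groups without overlap, a state seen in 1.04% of all kept probes with DEHP below vehicle and in 0.727% with DEHP above. The genes were chosen on this contrast, so nothing is read from these counts.

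**Figure D2:**
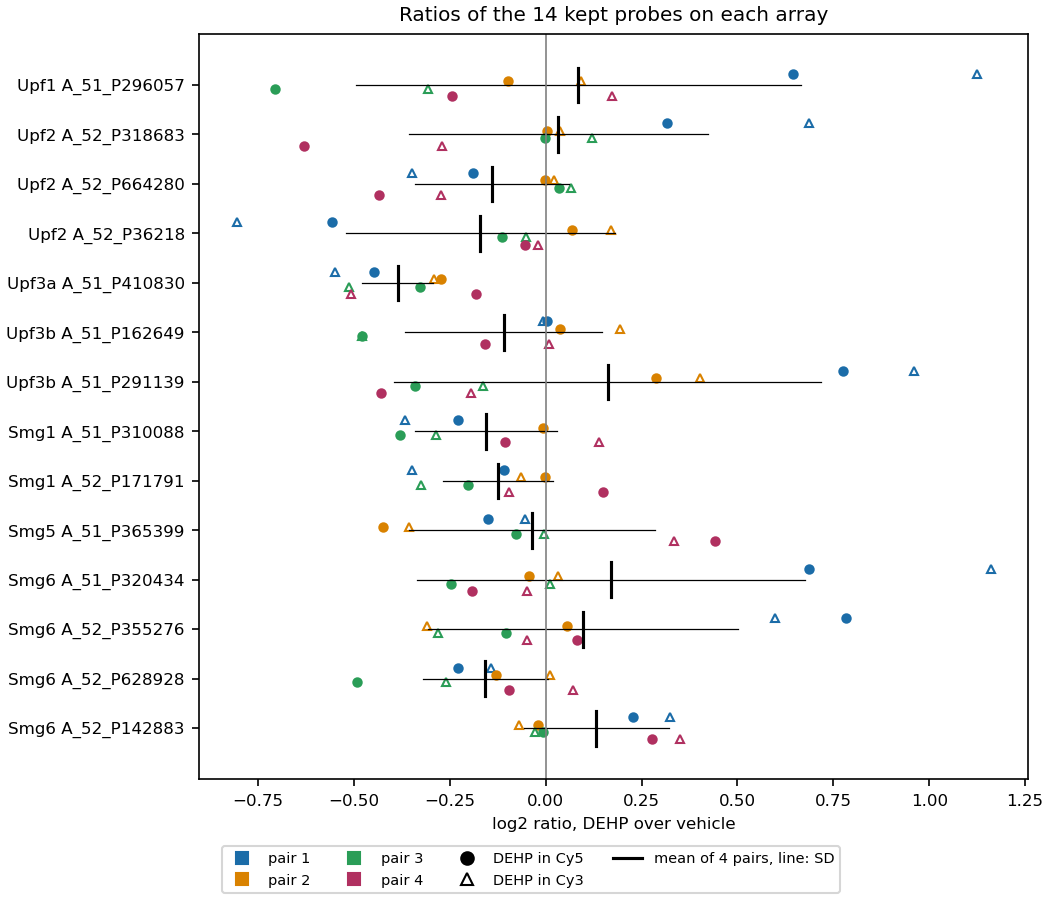
Log2 ratio of DEHP over vehicle for the 14 kept probes on each of the 8 arrays, coloured by mouse pair, with filled circles for DEHP in Cy5, open triangles for DEHP in Cy3, a black bar for the mean of 4 pairs and a line for its SD. Upf3a lies below 0 on all 8 arrays, while Upf1, Upf3b A_51_P291139 and the first Smg6 probes spread widely, with pair 1 farthest to the right.

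Upf3a encodes 1 of the 2 paralogs that link UPF proteins to the exon junction complex, and is held to be the weaker activator of decay of the pair. On arrays with DEHP in Cy5 the log2 ratio of its kept probe was -0.45, -0.27, -0.33 and -0.18 in pairs 1 to 4. With DEHP in Cy3 it was -0.55, -0.29, -0.51 and -0.51. All 8 values were below 0, so the sign did not depend on the dye.

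Averaged by pair, the Upf3a ratios were -0.50, -0.28, -0.42 and -0.34, with a mean of -0.39 ± 0.093 (SD, n = 4 pairs), or 0.765-fold. The SD was the smallest of the 14 kept probes. In single mice the log2 level was 16.16, 16.002, 16.14 and 16.35 in DEHP mice 1 to 4 and 16.70, 16.66, 16.28 and 16.56 in vehicle mice 1 to 4. The groups overlapped, since DEHP mouse 4 lay above vehicle mouse 3. Each DEHP mouse lay below the vehicle mouse on its own arrays, which only restates the pair ratios. The other Upf3a probe, A_52_P263386, was above background in 0 of 16 channels, so the ratio rests on 1 probe. The kept probe had a vehicle mean of 16.55, far above the next brightest member probe, Smg5 A_51_P365399, at 11.28. Whether so strong a signal comes from Upf3a transcripts alone was not tested.

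The size of the Upf3a ratio depended on the normalization. With each array centred on its median in place of loess, which fits the ratio along the signal range, the pair ratios were 0.059, -0.088, -0.44 and -0.17 and the mean was -0.16 ± 0.21 (SD, n = 4 pairs), with pair 1 above 0. Upf3a is a bright probe, with a mean log2 intensity of 16.36, and 373 kept probes reach a mean of 15 or more. Their median ratio was -0.0073 as normalised here and 0.20 with median centring, where it was 0.48, 0.19, -0.018 and 0.14 in pairs 1 to 4.

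Set against the median of those bright probes, the Upf3a ratio lay at -0.47, -0.28, -0.44 and -0.31 in pairs 1 to 4 with loess and at -0.42, -0.28, -0.42 and -0.31 with median centring. Loess and median centring differ by a shift that probes of like brightness largely share. Close values under both therefore follow from the method, and nothing is read from them. Without background correction the mean was -0.37, and from the ratios computed by the scanning software it was -0.39. The median of the bright probes was 0.010 and 0.0063 there, near 0 as with loess. Neither choice thus shows the ratio without levelling along the signal range. Among the 373 bright probes 198 had a mean below 0, 175 above 0 and 27 were below 0 in all 4 pairs. With loess the mean of Upf3a was number 3 from the lowest. The gene was picked with this contrast known, so nothing is read from that rank. None of the spots was saturated on the arrays (0 per array).

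**Figure D3:**
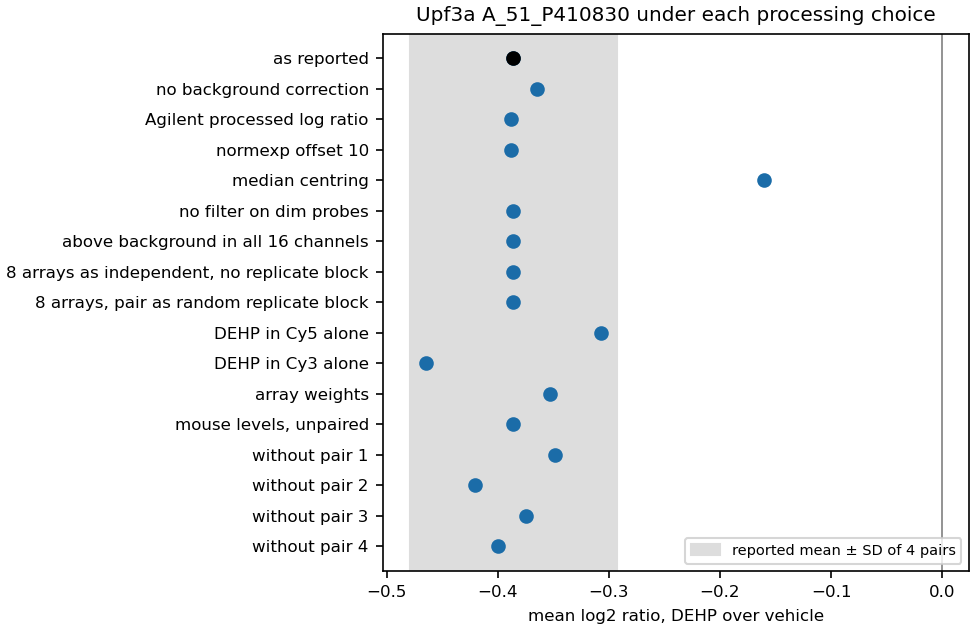
Mean log2 ratio of DEHP over vehicle of Upf3a A_51_P410830 under each processing choice, with the grey band showing the reported mean ± SD of 4 pairs. All points lie below 0, and median centring, at -0.16, is the one outside the band. Choices that change only the filter, the pairing or the unit of analysis return the reported value by construction.

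Upf3b, the X-linked paralog, had 2 kept probes that gave different ratios. For A_51_P291139, nearer the 3′ end, the ratios in pairs 1 to 4 were 0.87, 0.34, -0.25 and -0.31, with a mean of 0.16 ± 0.56 (SD, n = 4 pairs). For A_51_P162649, which crosses a junction, they were -0.0022, 0.12, -0.48 and -0.074, with a mean of -0.11 ± 0.26 (SD, n = 4 pairs). Neither probe kept 1 sign over the pairs, and in pair 1 the upstream probe was 0.87 below the downstream one.

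Mouse levels of Upf3b A_51_P291139 were 10.57, 10.38, 9.92 and 10.37 in DEHP mice 1 to 4. The vehicle mice 1 to 4 had 10.68, 9.70, 10.03 and 10.17. The vehicle mice thus spanned the whole range of the DEHP mice, and vehicle mouse 2, the partner in pair 1, was the lowest of all 8. The vehicle SD of 0.41 stood at the 97.6th percentile of all kept probes, whose median vehicle SD was 0.120. Upf3b and Upf3a differed in the direction of pairs 1 and 2, where Upf3a was below 0 and this Upf3b probe above. That difference was not tested.

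Upf1 encodes the helicase at the centre of the pathway. Its probe A_51_P296057 gave ratios of 0.88, -0.0030, -0.51 and -0.036 in pairs 1 to 4, with a mean of 0.085 ± 0.58 (SD, n = 4 pairs), the widest spread of the group. Log2 levels were 10.56, 9.99, 9.83 and 10.04 in DEHP mice 1 to 4 and 10.08, 9.68, 10.00 and 10.34 in vehicle mice 1 to 4. DEHP mouse 1 was the highest and its partner, vehicle mouse 2, the lowest of the 8 mice, and the other 6 were mixed between the groups.

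Upf2, the bridge between UPF1 and UPF3 proteins, had 3 kept probes along 95158 bases from the first to the last. The first, A_52_P318683, had ratios of 0.50, 0.020, 0.060 and -0.45 in pairs 1 to 4 (mean 0.033 ± 0.39, SD, n = 4 pairs). The middle one, A_52_P664280, crosses a junction and had -0.27, 0.010, 0.049 and -0.35 (mean -0.14 ± 0.20, SD, n = 4 pairs). The last, A_52_P36218, had -0.68, 0.12, -0.083 and -0.038 (mean -0.17 ± 0.35, SD, n = 4 pairs). In pair 1 the ratio stepped from above 0 at the first probe to below 0 at the last, while pairs 2 and 3 stayed between -0.083 and 0.12 at all 3 probes.

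Levels of the last Upf2 probe were 8.82, 9.23, 8.87 and 9.57 in DEHP mice 1 to 4 and 9.60, 9.504, 9.11 and 8.95 in vehicle mice 1 to 4. The first Upf2 probe, A_52_P318683, gave 8.20, 8.22, 8.03 and 8.13 in the DEHP mice and 8.58, 7.70, 8.20 and 7.97 in the vehicle mice. Here the DEHP mice lay close together, with an SD of 0.086, and the vehicle mice, with an SD of 0.37, reached both above and below them. Vehicle mouse 2 was the lowest of the 8 mice at the first probe and the third highest at the last.

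Smg6, the endonuclease that cuts the transcript near the stop codon, had 4 kept probes. The first, A_51_P320434, had ratios of 0.92, -0.0049, -0.12 and -0.12 in pairs 1 to 4, with a mean of 0.17 ± 0.50 (SD, n = 4 pairs). Close to it, A_52_P355276 had 0.69, -0.13, -0.19 and 0.016 (mean 0.097 ± 0.40, SD, n = 4 pairs). Both were high in pair 1 alone, and the other 3 pairs lay between -0.19 and 0.016.

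Farther downstream, the junction probe Smg6 A_52_P628928 had ratios of -0.19, -0.059, -0.38 and -0.011 in pairs 1 to 4 (mean -0.16 ± 0.16, SD, n = 4 pairs). It was below 0 in every pair but by little in pairs 2 and 4, and on 2 of the 8 single arrays it was above 0. The last probe, A_52_P142883, had 0.28, -0.045, -0.018 and 0.31 (mean 0.13 ± 0.19, SD, n = 4 pairs). Log2 levels of the junction probe were 10.15, 10.35, 10.21 and 10.76 in DEHP mice 1 to 4 and 10.77, 10.34, 10.41 and 10.59 in vehicle mice 1 to 4, so the groups overlapped. Over the 4 kept probes 3 had a mean above 0 and 1 below.

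Smg1, the kinase that phosphorylates UPF1, had 2 kept probes that lie 275 bases apart and gave alike ratios. The ratios of A_51_P310088 were -0.30, -0.0072, -0.33 and 0.017 in pairs 1 to 4 (mean -0.16 ± 0.19, SD, n = 4 pairs). Its value in pair 2 comes from 1 array, since the other spot was marked as an outlier and left out. For A_52_P171791 the ratios were -0.23, -0.032, -0.26 and 0.027 (mean -0.12 ± 0.14, SD, n = 4 pairs). Pairs 1 and 3 were below 0 and pairs 2 and 4 near 0 at both probes.

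In single mice Smg1 A_52_P171791 had log2 levels of 9.36, 9.59, 9.39 and 9.57 under DEHP and 9.54, 9.59, 9.62 and 9.65 under vehicle, for mice 1 to 4. DEHP mice 1 and 3 were the lowest of the 8, and DEHP mice 2 and 4 lay within the range of the vehicle mice. The vehicle mice were close together, with an SD of 0.047 against 0.12 in the DEHP mice.

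Smg5, which brings phosphorylated UPF1 to dephosphorylation and decay, had 1 kept probe. The ratios of A_51_P365399 were -0.10, -0.39, -0.041 and 0.39 in pairs 1 to 4, with a mean of -0.036 ± 0.32 (SD, n = 4 pairs). Its log2 level was 11.36, 11.00, 11.36 and 11.23 in DEHP mice 1 to 4 and 10.84, 11.46, 11.39 and 11.40 in vehicle mice 1 to 4. Vehicle mouse 1 was far below the other 3 vehicle mice, and it is the partner in pair 4, the 1 pair with a ratio above 0.

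**Figure D4:**
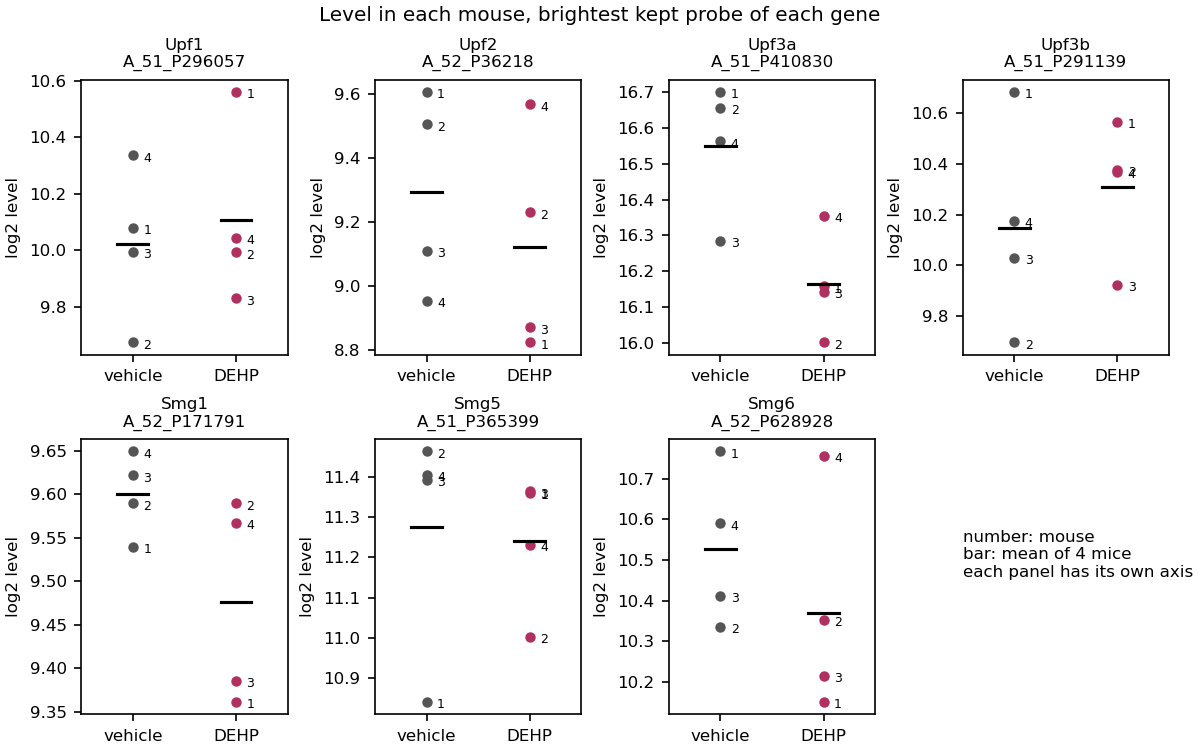
Log2 level in each of the 4 vehicle and 4 DEHP mice (numbers) for the brightest kept probe of each of the 7 genes, with a bar at the mean of each group and an axis of its own in each panel. In every panel the groups overlap, and for Upf3a only DEHP mouse 4 reaches above a vehicle mouse.

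The largest ratios of the group came from pair 1. A ratio over 0.5 in size was seen for 6 of the 14 probes in pair 1, against 5.47% of all kept probes. It was seen for 0 in pair 2 (0.805%), 1 in pair 3 (4.54%) and 0 in pair 4 (7.81%). In pair 1 the 6 were Upf1, the first and last probes of Upf2, Upf3b A_51_P291139 and the first 2 probes of Smg6, and 5 of them were above 0. In pair 3 it was Upf1, below 0. The genes were picked with these ratios known, and some of the 6 probes share a gene. Nothing is read from these counts. DEHP mouse 1 and vehicle mouse 2 were on the arrays of pair 1 alone, so mouse and array cannot be told apart there. Without pair 1 the mean ratio was -0.18 for Upf1, -0.073 for Upf3b A_51_P291139, and -0.081 and -0.10 for the first 2 Smg6 probes, all below 0 where the mean of 4 pairs was above. The first Upf2 probe likewise moved to -0.12 and the last to -0.00057.

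The difference between the first and the last kept probe, taken along the gene from 5′ to 3′, was 1.18, -0.099, 0.14 and -0.41 in pairs 1 to 4 for Upf2. For Smg6, over 234886 bases, it was 0.65, 0.040, -0.10 and -0.43. For Upf3b, over 6443 bases, it was -0.87, -0.23, -0.23 and 0.24, with a sign opposite to both other genes in pairs 1 and 4. The 2 Smg1 probes differed by -0.070, 0.025, -0.069 and -0.010. Over 1092 genes with kept probes at least 10000 bases apart, the median of this difference was 0.069, 0.0092, 0.041 and -0.030 in pairs 1 to 4. Among those genes the Upf2 difference stood at percentiles 99.6, 15.3, 65.9 and 12.1 in pairs 1 to 4, and the Smg6 difference at 93.9, 64.3, 30.4 and 10.9. Both were thus near the top in pair 1 and low in pair 4. This measure was added after the differences of Upf2 and Smg6 had been seen, and it gets no test.

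**Figure D5:**
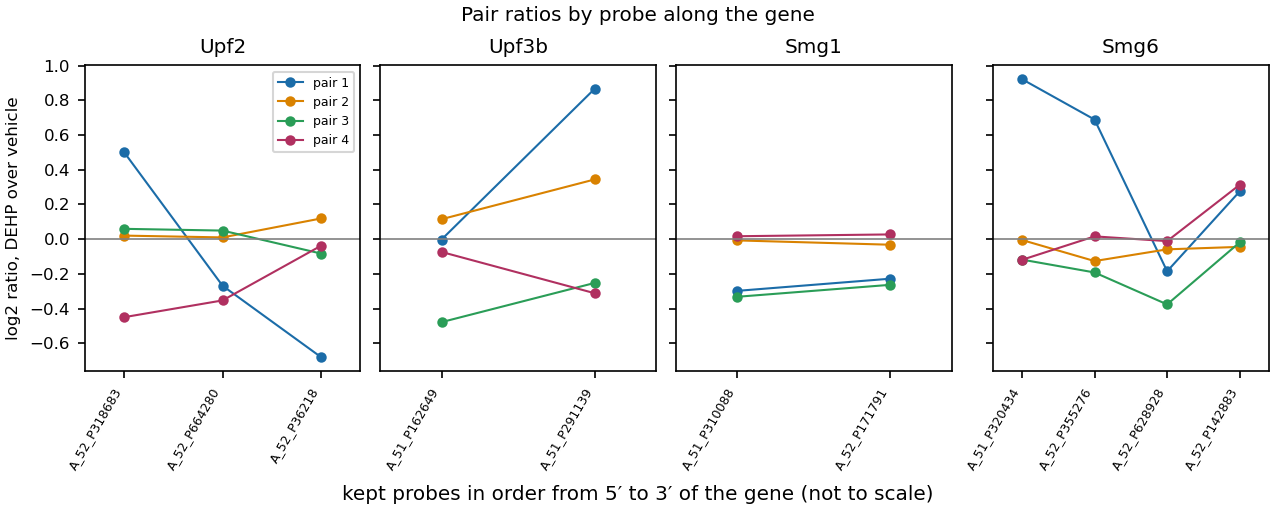
Log2 ratio of DEHP over vehicle in each pair for the kept probes of Upf2, Upf3b, Smg1 and Smg6, ordered from 5′ to 3′ and not to scale. Pair 1 runs from 0.50 down to -0.68 along Upf2 and starts at 0.92 in Smg6, while the 2 Smg1 probes lie level in every pair.

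Other genes of the decay machinery gave no call in limma. Of a list of 74 partners and downstream enzymes 68 were measured, each by its brightest kept probe. With limma's adjusted p over all kept probes, 0 passed as higher and 0 as lower. At an unadjusted p under 0.05 there were 3 higher and 3 lower, and over all 14308 genes with a kept probe there were 349 higher and 310 lower. The median log2 ratio of the list was -0.0083, with 33 genes above 0 and 35 below, and the median of all genes was -0.00058. Of the 68 genes 6 were above 0 in all 4 pairs and 6 below, against 941 and 913 of 14308 genes. The genes named below have the largest mean ratios of their sublists, so 1 sign over all pairs follows in part from that choice.

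Among the partners of the SMG and UPF proteins, Smg9, a regulatory subunit of the SMG1 complex, had a mean log2 ratio of -0.19 ± 0.43 (SD, n = 4 pairs) and was below 0 in 3 of 4 pairs (limma adjusted p = 0.913). In the exon junction complex, Rbm8a, which encodes the core protein Y14, had 0.19 ± 0.093 with 4 of 4 pairs above 0. Rnps1, a splicing factor bound to that complex, had -0.20 ± 0.088 with 4 of 4 pairs below 0, but its other kept probe had the opposite sign. Both had a limma adjusted p of 0.903. The termination factors Etf1 and Gspt1 had means of -0.23 ± 0.32 and -0.11 ± 0.41.

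In the steps after recognition, Lsm1, of the ring that promotes decapping, had a mean log2 ratio of 0.32 ± 0.14 (SD, n = 4 pairs) and was above 0 in 4 of 4 pairs (limma unadjusted p = 0.00578, adjusted p = 0.903). Lsm3, shared by the decapping and splicing rings, had 0.21 ± 0.22. In deadenylation, Cnot10 had -0.31 ± 0.40 and Cnot6, a catalytic subunit, -0.24 ± 0.21, both below 0 in 4 of 4 pairs. In the exosome and Ski group, Exosc9 had 0.21 ± 0.20, above 0 in 4 of 4 pairs, and Skic8 had -0.30 ± 0.31, below 0 in 4 of 4, with its other probe of opposite sign. Of the factors that use UPF1 in other ways, the histone mRNA binding protein gene Slbp had -0.13 ± 0.082 and Stau2 had 0.082 ± 0.29, with 1 other probe of opposite sign. None of these passed.

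Genes with transcripts known as targets of the pathway were measured for 17 of 22 listed, each by its brightest kept probe. Whether that probe reads the isoform that is a target was not checked, so these values give no measure of decay activity. Of these 0 passed in limma in either direction and 0 had an unadjusted p under 0.05. Their median log2 ratio was 0.037, with 10 above 0 and 7 below. Arc, an immediate early gene, had -0.18 ± 0.48 (SD, n = 4 pairs) and was below 0 in 3 of 4 pairs. Gadd45b, a stress-response gene, had 0.13 ± 0.28 with 2 of 4 pairs above 0. Without pair 1 the median of the target list was -0.0092 and without pair 3 it was -0.0013, on the other side of 0. The median of the wider decay list likewise crossed 0, to 0.012 without pair 2 and 0.0068 without pair 3.

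For each gene the 3 most alike probes by log2 level over the 8 mice were taken from 16160 kept probes with a gene symbol. The mice of a pair share arrays and the probes were picked from many, so the coefficients describe only these mice. Upf3a was most like Cfap45 (Pearson r = 0.964 over 8 mice), Crip2 (0.954) and Vps37b (0.954). Upf1 was most like Mthfd1 (0.975), Glrx5 (0.965) and Iqcd (0.942), and Upf2 like Tm7sf2 (0.990), Cep135 (0.981) and Dnaja2 (0.974). Upf3b was most like Eif5b (0.985), Bdh1 (0.977) and Stard10 (0.971). Smg1 was most like Rapgef2 (0.965), Dhx33 (0.952) and Yeats2 (0.950), Smg5 like Cep250 (0.987), Exosc5 (0.983) and Gtf3c5 (0.973), and Smg6 like Dhx29 (0.980), Coro2a (0.979) and Lats2 (0.977). The partner of Smg5 in this sense, Exosc5, belongs to the wider decay list as a subunit of the exosome.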

How the data were processed

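RNA of 8 mice was measured on 8 arrays with 2 colours. Spots carry a mean foreground and a median background intensity, both as scanned by Agilent Feature Extraction 9.5.1.1, per the file headers. That software also wrote a log10 ratio of red (Cy5) over green (Cy3), per the file headers. A value table of log2 ratios was deposited too, and the submitters' processing notes name limma. Its rows were matched by spot order and its direction from the values, and how it was normalised is not given in the sources used here.

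Intensities were corrected by normexp (offset 50) and normalised by loess within arrays, with control spots and outliers given no weight. Spots of a probe were averaged, ratios were turned to DEHP over vehicle by the dye labels, and both arrays of a pair were averaged. Outlier spots (154 to 209 of 43379 non-control spots per array) were left out. The intercept fit used limma 3.58.1 in R 4.3.3 (package data.table, version 1.17.8), moderated, 2-sided and adjusted by Benjamini-Hochberg with a threshold of 0.05, and was tested on simulated data. Mouse levels came from separate channels after loess and Aquantile scaling, as the mean of both dyes. Pairs come from the array labels, and the dye-swapped arrays of a pair correlated across probes by 0.539 to 0.717. Slide 1 held every array with DEHP in Cy5 and slide 2 every array with DEHP in Cy3, so slide and dye cannot be told apart. Symbols were updated by RefSeq accession for 22951 probes, by symbol for 6659 and by synonym for 3109, and 8455 had no match.

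The genes, the wider lists and the tests were chosen with earlier results of these data known. Named are every kept member probe, the 2 genes of largest mean ratio in each sublist, and the 3 probes most like each member, apart from 1 gene whose values are left out here. Alternatives covered background correction, normalization, the filter, pairing, dye, weights, the unit of analysis, the probe standing for a gene, leaving out each pair, and the authors' deposited values.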

Additional observations from a re-analysis of the deposited data

Results flagged for a closer look

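In 2 of 42 groups of 4 values, drawn from the pair ratios and mouse levels of the kept probes, 1 value stood apart from the other 3. Chance alone sets about 1 in 20 such groups apart. The log2 level of Smg5 A_51_P365399 in vehicle mouse 1 was 10.84, and its gap to the nearest vehicle mouse was 0.887 of the range of the 4, above the limit of Dixon's test for 4 values. The log2 ratio of Smg6 A_51_P320434 in pair 1 was 0.92, with a gap of 0.890 of the range of the 4 pairs.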

How the results depend on the processing

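The count of probes called was 0 in limma under each of 17 alternatives, with 497 to 3243 at an unadjusted p under 0.05. With the mouse pair as a replicate block over the 8 arrays the count was 0 and the Upf3a ratio -0.39, so no call changed. Median centring moved the Upf3a ratio to -0.16 and the median of the wider decay list to 0.050. Leaving out each pair in turn gave Upf3a ratios of -0.42 to -0.35. Over the same omissions the median of the target list ran from -0.0092 (without pair 1) to 0.032. With the scanning software's ratios, Smg1 A_51_P310088 moved to -0.36 and Upf2 A_52_P664280 to -0.50. The causes were not tested. Of 233 values of member probes under the alternatives, 230 moved by less than the spread between pairs, and 11 changed sign. 7 of the 14 probes kept their sign throughout. These counts include alternatives that change the filter, the pairing or the unit of analysis but not the ratio. Such alternatives returned the reported ratio by construction, apart from Smg1 A_51_P310088 with its 1 missing array. The counts therefore overstate how stable the ratios are. Ratios in the authors' deposited table were compared for 10 of the 14 probes, those matched to a row with values in at least 2 pairs. Upf3a A_51_P410830, Smg6 A_52_P628928, Upf2 A_52_P318683 and Upf2 A_52_P664280 had no such match, so none of their ratios was checked against that table. Signal over background limits the 12 undetected probes, for which no ratio is given.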
